A study of Mus musculus with 8 samples.

Results

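The CCN matricellular family comprises secreted proteins of the extracellular matrix, and its members *Ccn1*, *Ccn2*, *Ccn3*, *Ccn4* and *Ccn5* were followed at the mRNA level in mouse tibialis anterior (TA) muscles with knockdown of *Uba1*, the gene of the E1 enzyme that activates ubiquitin. The 5 members are 5 of the 41709 genes in the table and were taken by gene name. *Ccn4* and *Ccn5* were picked for their rise with *Uba1* siRNAs in these same muscles, so their difference between the groups is given as a description with no test. *Ccn1*, *Ccn2* and *Ccn3* came along as relatives of these and were not selected on their own values.

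The muscles came from 3-month-old male C57BL/6J mice, 7 days after electroporation of siRNA pools. *Uba1* siRNAs (siUBA1) were delivered to a TA muscle of 4 mice and non-targeting siRNAs (siNT) to the TA muscle of the other leg. The titles mark all siUBA1 muscles with L and all siNT muscles with R, so that leg and siRNA cannot be told apart. Replicates of the same number are the muscles of the same mouse. RNA was taken from whole muscle, fibers and other cells together. The treatment tags of the labels read UBA1, UBA2, UBA3 and UBA4 for the siUBA1 muscles, whereas all 4 titles read UBA1. Levels are given in TPM, in which the reads of a gene are divided by transcript length and scaled to the same total in every muscle. *Uba1* mRNA was at 60.6 ± 2.11 TPM in siNT and 15.9 ± 6.83 TPM in siUBA1 muscles (SD, n = 4 each) and lower in 4 of 4 mice, with the deepest knockdown in replicate 2 (6.77 TPM) and the weakest in replicate 4 (23.1 TPM). The log2 fold change (log2FC) of *Uba1* was -1.98 (adjusted p = 0.0527 from limma without pairing, and 0.0278 with the mouse as a block). The 8 skeletal muscle fiber markers summed to between 107200 and 153200 TPM in every muscle, which fits the labelled tissue.

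CCN proteins are built from shared modules that bind insulin-like growth factors, integrins and proteoglycans, and they tune how cells respond to matrix and growth factors rather than forming fibers themselves. *Ccn1* (formerly Cyr61) and *Ccn2* (formerly Ctgf) are classical targets of the Hippo effectors YAP and TAZ with TEAD transcription factors, and *Ccn2* is a well-known mediator of fibrosis downstream of TGF-beta in muscle. *Ccn3* (formerly Nov) can bind Notch1, whereas *Ccn4* and *Ccn5* (formerly Wisp1 and Wisp2) were named for their induction by Wnt signaling, and CCN5 lacks the C-terminal module of the other members. In muscle, these genes are expressed to a large extent by fibroblasts and other cells between the fibers, and in bulk RNA fewer cells of a type and less RNA per cell cannot be told apart.

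In GRCm39, *Ccn1* lies on chromosome 3 from 145352720 to 145355738 (minus strand), *Ccn2* on chromosome 10 from 24471333 to 24474900 (plus strand), and *Ccn5* on chromosome 2 from 163662753 to 163675066 (plus strand). *Ccn3* and *Ccn4* share chromosome 15, from 54609012 to 54620154 and from 66763060 to 66795050, both on the plus strand. The canonical transcript of each member has 5 exons. The 150 bases before the first annotated start of *Ccn1*, *Ccn2*, *Ccn4* and *Ccn5* are shown because these 4 promoters differ in the motifs they hold, and the members differ in how they varied between muscles. Capitals mark matches to any of the motifs searched, which were the TEAD motif GGAATG, the AP-1 motif TGANTCA, the TATA motif TATAAA, the CArG box bound by SRF and the kappaB motif bound by NF-kB, on both strands. The kappaB motif was added after the sequences had been read.
Ccn1, chr3:145355739-145355888, minus strand: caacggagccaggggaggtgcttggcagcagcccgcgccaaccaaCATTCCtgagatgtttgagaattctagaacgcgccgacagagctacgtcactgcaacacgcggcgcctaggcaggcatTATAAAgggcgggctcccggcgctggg
Ccn2, chr10:24471183-24471332, plus strand: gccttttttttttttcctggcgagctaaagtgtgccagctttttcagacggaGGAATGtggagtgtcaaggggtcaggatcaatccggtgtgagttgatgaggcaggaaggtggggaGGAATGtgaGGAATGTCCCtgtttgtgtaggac
Ccn4, chr15:66762910-66763059, plus strand: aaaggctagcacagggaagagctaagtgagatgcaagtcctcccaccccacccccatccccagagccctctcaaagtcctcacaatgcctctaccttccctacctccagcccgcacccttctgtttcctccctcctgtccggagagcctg
Ccn5, chr2:163662603-163662752, plus strand: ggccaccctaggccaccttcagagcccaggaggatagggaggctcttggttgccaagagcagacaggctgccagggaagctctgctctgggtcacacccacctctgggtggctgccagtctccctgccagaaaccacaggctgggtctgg

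The *Ccn2* promoter held 3 matches to the TEAD motif, starting 98, 33 and 24 bases before the start, the last of which overlaps a kappaB match on the other strand. Among the 250 bases before the canonical start of 21770 protein-coding genes, 12.1% held at least 1 TEAD motif, but only 17 genes (0.0781%) held 3 or more. The *Ccn1* promoter held 1 TEAD motif on the other strand, starting 105 bases before the start, and a TATA motif starting 27 bases before it, which 11.9% of the promoters held. *Ccn3* and *Ccn5* matched none of the motifs in 250 bases. In *Ccn4*, whose canonical start lies 99 bases after the first annotated one, a single kappaB match was found between both starts, and 7.62% of the promoters held such a match.
Ccn4 kappaB match, chr15:66763116-66763135, plus strand: agtctGGGACTTTCCcttta

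None of the members matched the AP-1 motif or the CArG box, which were held by 6.17% and 1.40% of the promoters. These matches are letters only, and no binding was measured.

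In TPM, which is a level per length of transcript, the members covered a wide range. *Ccn1* was above *Ccn2*, *Ccn2* above *Ccn3*, and *Ccn3* above *Ccn4* in all 8 muscles. The smallest ratio between these neighbors in any muscle was 3.44 for *Ccn1* over *Ccn2*, 3.17 for *Ccn2* over *Ccn3* and 1.65 for *Ccn3* over *Ccn4*. *Ccn4* and *Ccn5* did not differ beyond their spread in siNT muscles, where the ratio of *Ccn4* to *Ccn5* ranged from 0.881 to 2.47. In siUBA1 muscles this ratio ranged from 0.567 to 0.956, so that *Ccn5* was the higher in all 4. Of the summed TPM of the 5 members, *Ccn1* took 79.5% ± 5.31 in siNT and 78.1% ± 3.26 in siUBA1 muscles (SD, n = 4 each), and *Ccn2* took 16.3% ± 4.36 and 16.5% ± 1.79. The family is therefore mostly *Ccn1* mRNA in this muscle, under both siRNAs. The summed level itself was 214.6 ± 52.9 TPM in siNT and 264.1 ± 78.5 TPM in siUBA1 muscles, with ranges that overlapped. *Ccn6*, the remaining gene of the family, is not among the members and was listed between 0 and 0.0974 TPM, with a fewest fitting number of 0 to 2 reads in a muscle (exact permutation test of its TPM, two-sided, p = 0.743).

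**Figure D1:**
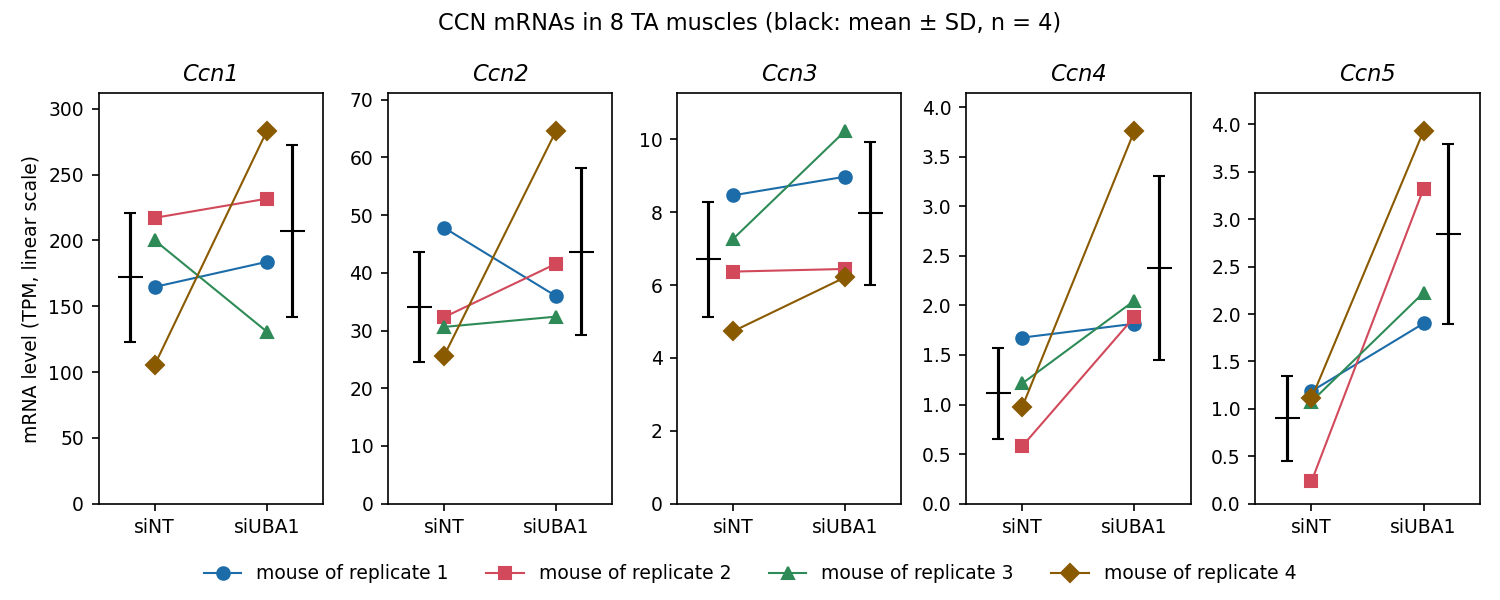
TPM (linear axes from 0, a scale for each gene) of the 5 CCN mRNAs in siNT and siUBA1 muscles, with a line joining the legs of a mouse and black bars for the mean ± SD (n = 4). The groups overlap for *Ccn1*, *Ccn2* and *Ccn3*, all siUBA1 muscles lie above all siNT muscles for *Ccn4* and *Ccn5*, and replicate 4 of siUBA1 is the highest muscle for every gene but *Ccn3*.

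*Ccn1*, an integrin ligand and immediate-early gene, was at 164.6, 217.1, 200.0 and 105.5 TPM in siNT replicates 1 to 4, and at 183.7, 231.7, 130.6 and 283.2 TPM in siUBA1 replicates 1 to 4. The lowest muscle (siNT) and the highest (siUBA1) were the legs of the same mouse, replicate 4, and the groups overlapped over most of their range. The log2FC was 0.26 (95% confidence interval -0.35 to 0.88, SE 0.27) and did not pass the test (adjusted p = 0.602 from limma, exact permutation test p = 0.457, two-sided). *Ccn1* was higher with siUBA1 in 3 of 4 mice and lower in replicate 3. Without replicate 4 the log2FC turned to -0.12.

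*Ccn2*, a promoter of matrix deposition, was at 47.8, 32.3, 30.6 and 25.6 TPM in siNT replicates 1 to 4 and at 36.0, 41.6, 32.4 and 64.6 TPM in siUBA1 replicates 1 to 4. As for *Ccn1*, replicate 4 held the lowest and the highest muscle, and all other siUBA1 muscles lay within the siNT range. The log2FC was 0.33 (95% confidence interval -0.19 to 0.86, SE 0.23), which did not pass the test (adjusted p = 0.441 from limma, exact permutation test p = 0.286, two-sided). Without replicate 4 it was 0.011. Counting error was small for both genes, since each value rests on at least 1062 reads, so that the spread lay between muscles.

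*Ccn3*, which binds Notch1 and integrins, was at 8.46, 6.37, 7.27 and 4.73 TPM in siNT replicates 1 to 4 and at 8.98, 6.44, 10.2 and 6.22 TPM in siUBA1 replicates 1 to 4. Every mouse was higher in the siUBA1 leg, by 1.01-fold in replicate 2 to 1.41-fold in replicate 3, but the groups overlapped. An increase in 4 of 4 mice was found in 32.2% of the 11530 genes tested, and 81.8% of them had a log2FC above 0. The log2FC of *Ccn3* was 0.22 (95% confidence interval -0.20 to 0.63, SE 0.19) and did not pass the test (adjusted p = 0.529 from limma, exact permutation test p = 0.371, two-sided). After median-ratio scaling, which sets the typical gene to the same level in every muscle, *Ccn3* was higher in 2 of 4 mice only, as were *Ccn1* and *Ccn2*. With the mouse as a block, the interval of *Ccn3* was 0.0066 to 0.43 before adjustment, and the adjusted p was 0.191 from limma.

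*Ccn4*, a matrix protein that in muscle is known as a signal from fibro-adipogenic progenitors to muscle stem cells, was at 1.67, 0.580, 1.21 and 0.978 TPM in siNT replicates 1 to 4. In siUBA1 replicates 1 to 4 it was at 1.81, 1.88, 2.05 and 3.76 TPM. The groups did not overlap, although siNT and siUBA1 of replicate 1 were only 1.08-fold apart, and siUBA1 replicate 4 stood well above the other 3. The means were 1.11 ± 0.457 and 2.38 ± 0.927 TPM (SD, n = 4 each), a ratio of 2.14, and the log2FC on the scale of TPM + 1 was 0.67 (SE 0.20), which understates a change at such low TPM. After median-ratio scaling the groups overlapped, since siNT replicate 1 then lay above siUBA1 replicate 1.

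*Ccn5*, which lacks the C-terminal module and is known to restrain the growth of smooth muscle cells, was at 1.19, 0.235, 1.08 and 1.11 TPM in siNT replicates 1 to 4 and at 1.90, 3.32, 2.23 and 3.93 TPM in siUBA1 replicates 1 to 4. All siUBA1 muscles lay above all siNT muscles, also after median-ratio scaling. The means were 0.902 ± 0.447 and 2.85 ± 0.946 TPM (SD, n = 4 each), a ratio of 3.16, with a log2FC of 1.02 (SE 0.22). For 10.6% of the genes tested every siUBA1 muscle was above every siNT muscle, or 2.71% after median-ratio scaling. Because *Ccn4* and *Ccn5* were chosen for this contrast, nothing is read from these shares. *Ccn4* reached 1 TPM in 2 of 4 siNT muscles and *Ccn5* in 3 of 4, and both did in all 4 siUBA1 muscles, so all 5 members passed the filter on low values.

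The depth behind the low values can be read from the TPM, whose steps gave whole reads (within 0.01 read) for 99.99% of 21532 genes, at 31430852 to 32811368 reads per muscle. These are the fewest reads that fit. *Ccn5* rested on 7 reads in siNT replicate 2 (exact 95% Poisson interval 2.81 to 14.4), on 31 to 36 in the other siNT muscles and on 54 to 115 in siUBA1 muscles. The interval of siNT replicate 1 (25.2 to 49.8 reads) overlaps that of siUBA1 replicate 1 (40.6 to 70.5 reads). *Ccn4* rested on 50 to 147 reads in siNT and 149 to 318 in siUBA1 muscles, with intervals of 124.2 to 172.8 and 126.0 to 174.9 reads in the legs of replicate 1. The gap between these legs was therefore not detectable at this depth. The intervals cover counting error only.

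Within mice, the ratio of the siUBA1 leg to the siNT leg differed widely between animals. For *Ccn5* it was 1.60, 14.1, 2.07 and 3.54 in replicates 1 to 4, and for *Ccn4* 1.08, 3.25, 1.69 and 3.84. Replicate 1 had the smallest ratio for both, and the 14.1-fold of replicate 2 rests on the 7 reads of its siNT leg. For *Ccn1* the ratio was 1.12, 1.07, 0.653 and 2.69, and for *Ccn2* 0.752, 1.29, 1.06 and 2.53, so that the other 3 mice were at 1.29-fold or below for both genes. Replicate 4 was the mouse with the weakest *Uba1* knockdown and replicate 2 that with the deepest. A relation between these ratios and the depth of the knockdown was not tested, and 4 mice are too few to read one from their order.

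**Figure D2:**
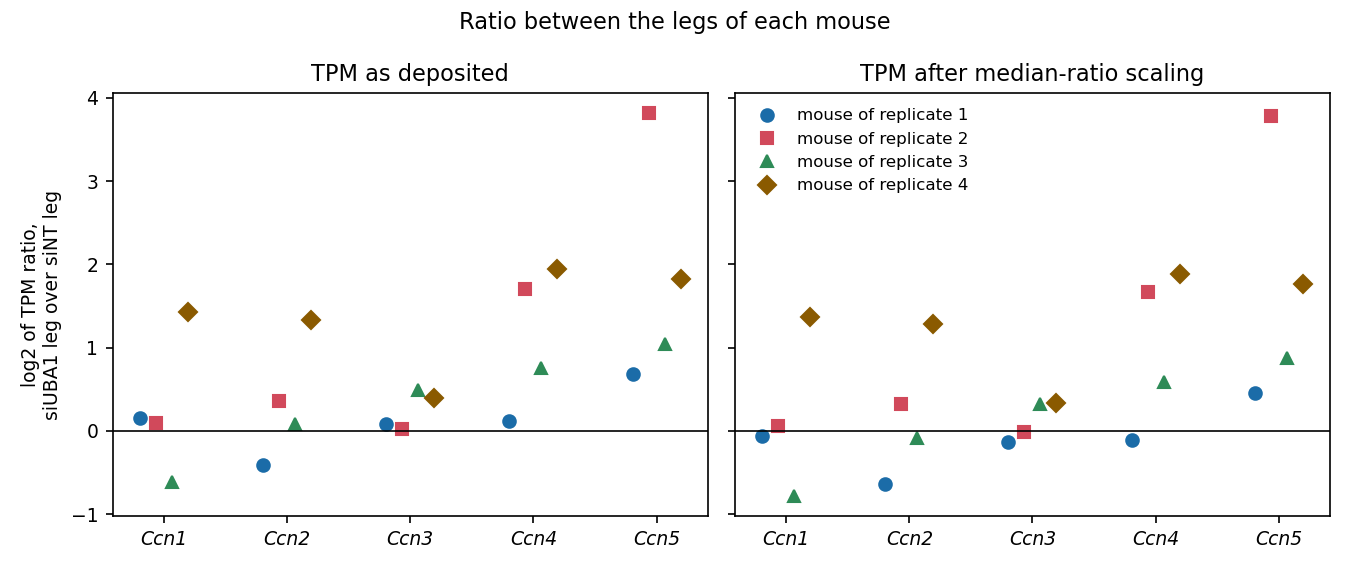
Log2 of the ratio of TPM between the siUBA1 and the siNT leg of each mouse for the 5 members, with TPM as deposited on the left and after median-ratio scaling on the right. *Ccn5* lies above 0 in all 4 mice in both panels, *Ccn4* in 4 and then 3 mice, and *Ccn1* and *Ccn2* are set apart by replicate 4.

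The scale bears on all members, though not equally. The median log2FC of all genes tested was 0.11 in TPM as deposited and 0.0016 after median-ratio scaling, and scaling lowered the log2FC of *Ccn1* to 0.14, of *Ccn2* to 0.22, of *Ccn3* to 0.11, of *Ccn4* to 0.60 and of *Ccn5* to 0.96. Rescaling without mitochondrial genes, which held 39.9% to 50.3% of the TPM of a muscle, moved the members the other way. The log2FC was then 0.28 for *Ccn1*, 0.36 for *Ccn2*, 0.24 for *Ccn3*, 0.82 for *Ccn4* and 1.26 for *Ccn5*. Shares of the family's own TPM do not depend on the scale. *Ccn5* took 0.469% ± 0.294 of the summed TPM in siNT (0.0916% to 0.805%) and 1.08% ± 0.188 in siUBA1 muscles (0.819% to 1.25%). *Ccn4* took 0.547% ± 0.239 (0.226% to 0.748%) and 0.909% ± 0.227 (0.662% to 1.15%, SD, n = 4 each). The share of *Ccn5* did not overlap between the groups, by a narrow gap (0.805% against 0.819%), whereas that of *Ccn4* did. Most of the summed TPM is *Ccn1*. Since *Ccn4* and *Ccn5* were picked for their rise in these muscles, nothing is read from these shares.

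Across the 8 muscles, *Ccn4* and *Ccn5* varied together (Pearson r of log2 values 0.913, and 0.787 for the deviations from the group means, which leave out the difference between siRNAs). *Ccn2* followed *Ccn4* (0.790 and 0.782) more closely than *Ccn1* (0.693 and 0.652), and *Ccn3* had an r of log2 values between -0.042 and 0.267 with each of the others, and of deviations between -0.373 and -0.022. These are descriptions over 8 muscles, whose genes share libraries, and siUBA1 replicate 4 is the highest muscle of all but *Ccn3*.

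By deviations from the group means, the genes most like *Ccn1* were *Errfi1*, an inhibitor of EGF receptors (r = 0.924), *Dusp1*, a phosphatase of MAP kinases (0.924), *Zfp36*, which promotes mRNA decay (0.916), *Nfkbia*, the inhibitor of NF-kB (0.910), and *Exosc1*, an exosome subunit (0.888). *Dusp1* was at 80.2, 129.1, 107.9 and 70.1 TPM in siNT and at 84.0, 111.4, 78.3 and 150.7 TPM in siUBA1 replicates 1 to 4, with the same lowest and highest muscle as *Ccn1*. *Errfi1* and *Nfkbia* were lower on average with siUBA1 (47.6 ± 9.47 against 70.0 ± 11.5 TPM, and 44.1 ± 9.75 against 70.9 ± 6.88 TPM), unlike *Ccn1* itself. By log2 values *Dusp1* (0.918) and *Exosc1* (0.898) led, before *Zfp747*, *Gm36608* and *Gm26532*.

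The genes most like *Ccn2* were *Ablim1*, an actin-binding LIM protein (r = 0.937), *Rhot2*, a mitochondrial GTPase (0.926), *BC002059*, *Cd300lg* and *Adck1* by log2 values. By deviations they were *Rhot2* (0.960), *Dipk1b*, *Lrrc15*, *Ablim1* and *BC002059*. *Rhot2* moved over a narrow range, 46.1 ± 2.66 TPM in siNT and 46.8 ± 2.29 TPM in siUBA1 muscles, so its likeness concerns small differences.

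*Ccn4* was most like *Bmp5*, a ligand of the BMP family (r = 0.965), *Lrrc15*, a surface protein of activated fibroblasts (0.964), *St6galnac2_1*, *Edc3* and *Zmym4*, and by deviations like *St6galnac2_1* (0.938), *Bmp5* (0.929), *Lrrc15* (0.917), *Spc24* and *Edc3*. *Lrrc15* was at 1.19, 0.413, 0.692 and 0.532 TPM in siNT and at 1.21, 1.76, 1.22 and 2.95 TPM in siUBA1 replicates 1 to 4. As for *Ccn4*, the legs of replicate 1 were nearly level and siUBA1 replicate 4 was highest.

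Among the genes most like *Ccn5* by log2 values were *Thbs2*, another matricellular protein (r = 0.976), *Mmp13*, a collagenase (0.970), *Col11a1*, a fibrillar collagen (0.963), and *Tpx2*, a spindle protein (0.959). *Thbs2* was at 7.21, 2.91, 5.94 and 4.75 TPM in siNT and at 9.55, 12.7, 9.55 and 14.1 TPM in siUBA1 replicates 1 to 4. *Mmp13* was at 8.52, 1.40, 5.85 and 4.12 TPM and at 9.13, 59.9, 19.5 and 58.1 TPM. Replicate 2 was the lowest siNT muscle for both, as for *Ccn5*, and the siUBA1 legs of replicates 2 and 4 were the highest. By deviations *Slc1a1* (0.926), *Mmp13* (0.918), *Thbs2* (0.915) and *Gm49708* (0.904) were among those that led. Since *Ccn4* and *Ccn5* were chosen for their rise, other genes with a rise are favored in the likeness by log2 values.

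**Figure D3:**
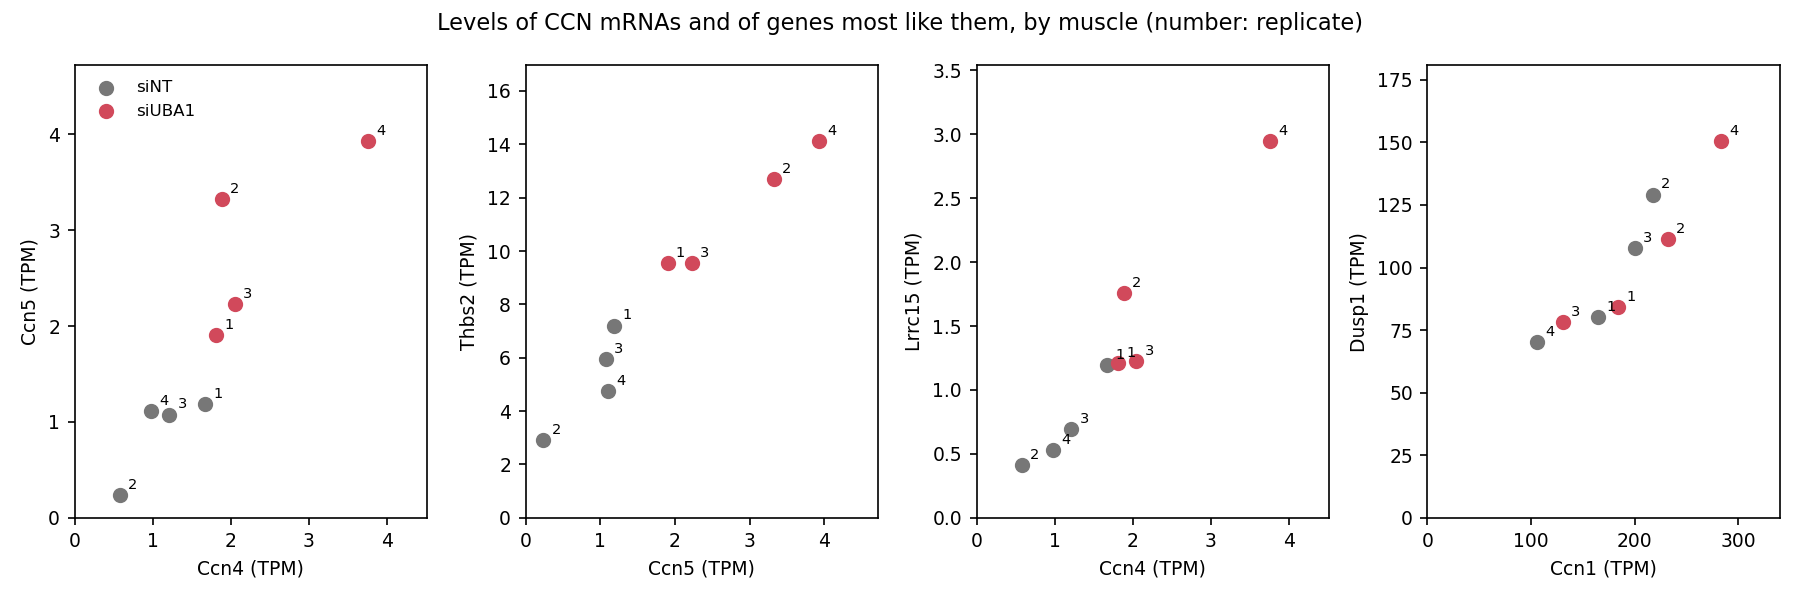
TPM of *Ccn5* against *Ccn4*, *Thbs2* against *Ccn5*, *Lrrc15* against *Ccn4* and *Dusp1* against *Ccn1* in the 8 muscles (linear axes from 0, gray siNT, red siUBA1, numbers are replicates). The siUBA1 muscles lie at the upper end for *Ccn4* and *Ccn5*, whereas the groups mix in the plot of *Dusp1* against *Ccn1*.

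Of 15 receptors and surface partners of CCN proteins, 13 were tested and 9 (69.2%) had a log2FC above 0, beside 81.8% of all genes. None of the 13 passed an adjusted p of 0.05 without pairing in TPM as deposited, a call made for 0.0260% of all genes. After median-ratio scaling 1 did (*Itga5*, adjusted p = 0.0102 from limma), where 23 of all 11530 genes passed. With the mouse as a block, where 0.494% of all genes passed, *Sdc4* and *Itga5* fell. *Sdc4*, the proteoglycan syndecan-4, was at 35.4, 43.0, 33.1 and 39.2 TPM in siNT and at 20.4, 23.5, 19.1 and 25.3 TPM in siUBA1 replicates 1 to 4, without overlap (log2FC -0.75, adjusted p = 0.0527 from limma, and 0.00984 with the block). *Itga5*, the alpha chain of the fibronectin receptor, was at 14.3, 16.4, 15.8 and 14.6 TPM and at 9.67, 7.40, 11.0 and 8.50 TPM (log2FC -0.69, adjusted p = 0.0644 from limma, and 0.0478 with the block). Both were lower in 4 of 4 mice. *Itgb5*, an integrin beta chain that pairs with the alpha V chain to bind CCN proteins, was at 49.2 ± 2.43 and 60.4 ± 7.20 TPM (SD, n = 4 each, log2FC 0.29, adjusted p = 0.182 from limma). The median log2FC of the receptors was 0.083, beside 0.11 for all genes. After median-ratio scaling it turned to -0.026, with 6 of 13 above 0. It also moved with single muscles, to -0.0061 without siUBA1 replicate 3, 0.0099 without siNT replicate 4, 0.045 without siUBA1 replicate 1, 0.16 without siUBA1 replicate 4 and 0.17 without siNT replicate 3.

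Of 20 other targets of YAP and TAZ with TEAD, the factors known to act on *Ccn1* and *Ccn2*, 16 were tested, 12 had a log2FC above 0, and the median log2FC was 0.12. At an unadjusted p under 0.05, 3 were higher and 1 was lower, where 16.0% and 1.98% of all genes were. *Nuak2*, a kinase, went from 2.27 ± 0.170 to 1.12 ± 0.161 TPM (SD, n = 4 each, log2FC -0.63, adjusted p = 0.0522 from limma) and passed with the mouse as a block (adjusted p = 0.0390). After median-ratio scaling *Nuak2* was among the 23 genes that passed without pairing (adjusted p = 0.0268 from limma). *Arhgef17* and *Ptpn14*, a phosphatase that binds YAP, had log2FC of 0.32 and 0.19 (adjusted p = 0.168 and 0.245 from limma). Of 25 Hippo kinases, YAP, TAZ and TEAD factors and their partners, 24 were tested and 20 (83.3%) had a log2FC above 0, beside 81.8% of all genes, with a median of 0.10 (0.063 without siUBA1 replicate 3). After median-ratio scaling 13 of the 24 were above 0 (median 0.0081), as were 9 of the 16 other YAP and TAZ targets (median 0.022). The smallest unadjusted p-values belonged to the kinases *Taok1* (log2FC 0.30) and *Lats2* (0.16) and to *Tead1*, a TEAD factor (0.37), none past the adjusted p (0.174 to 0.260 from limma).

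The SRF and MRTF targets, cytoskeletal genes whose factor can also act on *Ccn1* and *Ccn2*, had a median log2FC below 0, unlike the other 5 lists in TPM as deposited. All 15 were tested, 13 had a log2FC below 0, and the median was -0.17, or -0.091 without siUBA1 replicate 2 and -0.11 without siNT replicate 1. After median-ratio scaling, when 50.7% of all genes were above 0, all 15 were below 0, their median was -0.285, and 8 were lower at an unadjusted p under 0.05, beside 712 lower and 511 higher of all 11530 genes. In TPM as deposited, 4 of the 15 were lower and 0 higher at that p, beside 1.98% and 16.0% of all genes, and 0 passed the adjusted p with or without the block (limma). Of the 8 skeletal muscle fiber markers, 7 had a log2FC below 0 as well (median -0.12, and -0.24 after scaling), and 4 of 6 mural cell markers were above 0 (median 0.014), or 2 of 6 after scaling (median -0.10). The 2 below 0 in TPM as deposited were *Acta2*, which is also on the list of SRF and MRTF targets, at -0.24 and *Myh11* at -0.30. None of these markers passed the adjusted p (limma), and the part of fiber and mural cell RNA in the values of this list was not tested. *Cnn1*, calponin of smooth muscle, had a log2FC of -0.48, *Actg1*, cytoplasmic actin, -0.34, and *Zyx*, zyxin of adhesion sites, -0.30 (adjusted p between 0.173 and 0.207 from limma).

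Of 11 targets of TGF-beta and SMAD, 10 were tested and 7 had a log2FC above 0, beside 81.8% of all genes. The median of the 10 was 0.099, or 0.065 without siUBA1 replicate 3. After median-ratio scaling it turned to -0.0079, with 4 of 10 above 0. *Tgif1*, a repressor of SMAD signaling, went from 7.47 ± 1.69 to 3.86 ± 0.827 TPM (SD, n = 4 each, log2FC -0.79, adjusted p = 0.129 from limma) and passed with the mouse as a block (adjusted p = 0.0288). *Ltbp3*, which binds latent TGF-beta, reached 0.26 on the log2 scale (limma, adjusted p = 0.256). Of 13 targets of Wnt and beta-catenin only 4 were tested, as the other 9 were low. All 4 had a log2FC above 0 (median 0.16, 0.060 after scaling, 0.11 without siNT replicate 2, and 0.030 when the low targets were kept as well), among them *Nkd2* (0.22), *Axin2* (0.17) and *Znrf3* (0.12), 3 feedback inhibitors of the pathway, with adjusted p of 0.232, 0.400 and 0.423 from limma.

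**Figure D4:**
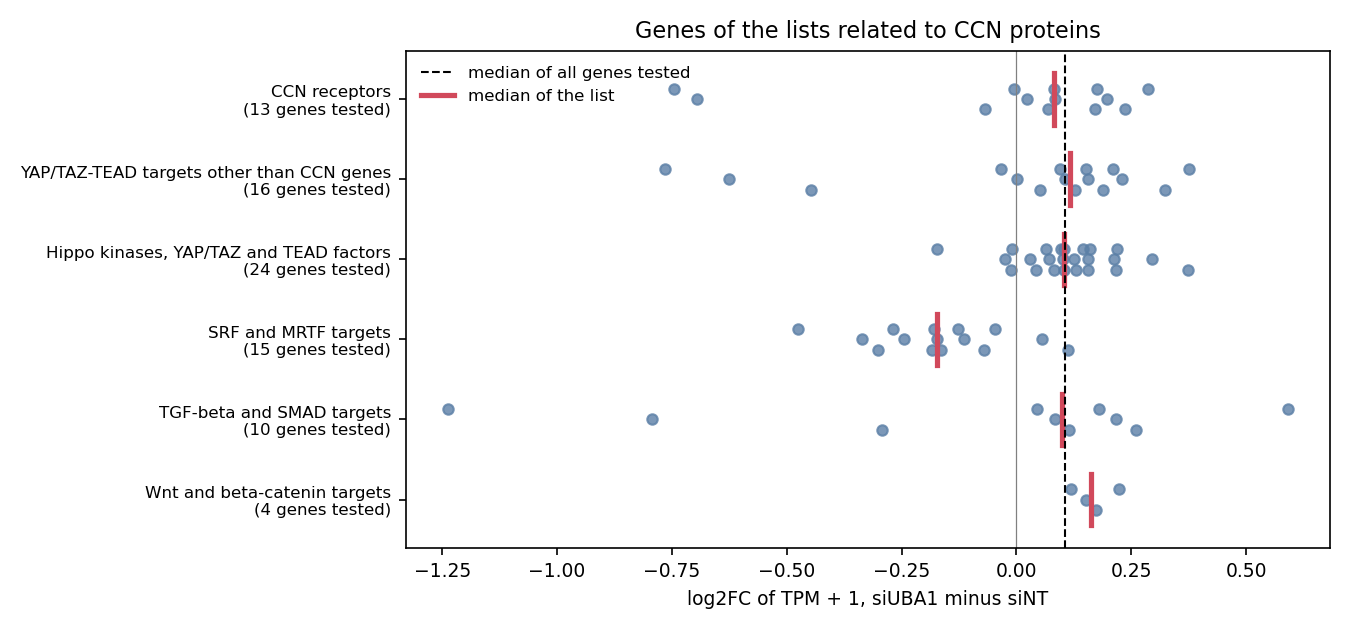
Log2FC (siUBA1 minus siNT, log2 of TPM + 1) of the tested genes of 6 lists related to CCN proteins, with a red bar for the median of each list and a dashed line for the median of all genes tested (0.11). The SRF and MRTF targets lie mostly left of 0, and the medians of the other 5 lists lie between 0.083 and 0.16.

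Markers of other cell types were set beside *Ccn4* and *Ccn5*. Of 8 fibroblast and fibro-adipogenic progenitor markers, 6 had a log2FC above 0 (median 0.27, and 0.15 after median-ratio scaling), and they summed to 865.9 to 1475 TPM in siNT and 939.5 to 1743 TPM in siUBA1 muscles. Their log2FC ranged from -0.21 (*Dpt*) to 0.57 (*Col1a1*), and none passed the adjusted p (limma). Of 6 tendon markers, 5 were tested and 4 (80.0%) had a log2FC above 0 (median 0.22), as did 4 after scaling (median 0.11). The 6 markers summed to 101.5 to 235.5 TPM in siNT and 152.0 to 230.7 TPM in siUBA1 muscles. Of 7 osteoblast markers, 3 were tested, all above 0, namely *Alpl* (log2FC 0.37, adjusted p = 0.373 from limma), *Ibsp* and *Bglap*. The 7 markers summed to 10.2 to 16.9 TPM in siNT and 13.2 to 43.8 TPM in siUBA1 muscles, with none at 0 in every muscle. *Sp7*, the osteoblast transcription factor, was below the filter, at 0.355, 0.190, 0.275 and 0.101 TPM in siNT and at 0.678, 0.979, 0.935 and 0.871 TPM in siUBA1 replicates 1 to 4. *Runx2* (0.469 ± 0.0929 and 0.871 ± 0.258 TPM) and *Dmp1* (0.130 ± 0.0558 and 0.222 ± 0.0464 TPM) were below it too and higher on average with siUBA1. *Phex*, also below it, was not (0.254 ± 0.114 and 0.228 ± 0.0530 TPM, SD, n = 4 each). *Ibsp*, bone sialoprotein, was at 2.45, 0.468, 2.91 and 2.30 TPM in siNT and at 1.93, 19.8, 6.72 and 23.0 TPM in siUBA1 muscles (log2FC 1.86, adjusted p = 0.197 from limma). *Bglap*, osteocalcin, was at 1.13, 0.313, 0.324 and 0.446 TPM in siNT and at 0.658, 4.76, 2.24 and 4.15 TPM in siUBA1 replicates 1 to 4. *Bglap* was thus lower with siUBA1 in replicate 1. It passed the filter mostly through siUBA1 muscles, so nothing is read from its log2FC of 1.22. As for *Ccn5*, *Ibsp* was highest in the siUBA1 legs of replicates 4 and 2 and lowest in the siNT leg of replicate 2. Of 6 chondrocyte markers 1 passed the filter, *Sox9* (log2FC -0.60), *Matn1* was at 0 in every muscle, and the sums were 2.83 to 4.19 and 1.93 to 3.65 TPM. The markers of endothelial cells, mural cells, leukocytes and Schwann cells had medians between 0.00060 and 0.083, which turned to between -0.12 and -0.016 after median-ratio scaling. The part of these cell types in the levels of *Ccn4* and *Ccn5* was not tested.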

How the data were processed

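Total RNA of 8 TA muscles was sequenced as paired-end reads. Per the labels and methods, the authors used CLC Genomics Workbench to map quality-trimmed reads to the GRCm39 build, and the deposited gene levels are TPM. The annotation, strand setting and treatment of reads shared between genes are not given in the sources used here, and symbols were matched to GENCODE M39 for positions. Of all genes, 11530 reached 1 TPM in 4 or more muscles, and their log2(TPM + 1) values were tested with limma 3.58.1 (R 4.3.3, lmFit, eBayes with a trend, no block) and Benjamini-Hochberg adjustment over all of them. The test was tested on simulated data. Exact permutation tests (scipy 1.17.1) were two-sided and unpaired, so they ignore that legs share a mouse, with a smallest p of 0.0286 for 4 muscles against 4. A fold change on the log2(TPM + 1) scale understates changes of low genes. Reads per gene were recovered from TPM steps for counting error only.

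The members, gene lists and tests were chosen with earlier results of these data known. The genes named were the 5 members, *Ccn6*, *Uba1*, the markers, per pathway list every gene past the adjusted p and the 3 smallest p-values, and the 5 genes most like *Ccn1*, *Ccn2*, *Ccn4* and *Ccn5* by each measure, of which some are not reported here. Same-numbered muscles are legs of a mouse by titles and methods, and their deviations correlated at -0.00037, 0.20, 0.58 and 0.54 for replicates 1 to 4. Motifs were sought in GRCm39. Alternatives tried were another pseudocount, other filters, other scalings, the mouse as a block, Kruskal-Wallis tests and leaving out muscles or mice.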

Additional observations from a re-analysis of the deposited data

Results flagged for a closer look

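In siUBA1 replicate 4, *Ccn4* was at 3.76 TPM, set apart from the other siUBA1 muscles at 1.81 to 2.05 TPM. In siNT replicate 2, *Ccn5* was at 0.235 TPM, set apart from 1.08 to 1.19 TPM in the other siNT muscles, and this value rests on 7 reads. In siNT replicate 4, *Zyx* was at 12.8 TPM, below the 16.7 to 17.0 TPM of the other siNT muscles. Each was set apart by the ratio of its gap to the group's range (Dixon's test for 4 samples). Of 50 groups tested, 3 were set apart, where chance gives about 2.5.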

How the results depend on the processing

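*Ccn2* and *Ccn3* kept their direction and stayed short of an adjusted p of 0.05 under all 21 alternatives (log2FC 0.011 to 0.58 and 0.082 to 0.32), with *Ccn1* under 20 of 21. Other filters, the mouse as a block and the Kruskal-Wallis test leave the log2FC of these 3 genes unchanged, and the block with scaling repeats the scaled value. Those settings therefore say nothing about direction. The Kruskal-Wallis test, whose smallest p here is 0.0209 before adjustment, passed no gene and says nothing about the stability of these calls. Leaving out muscles or mice moved *Ccn1* between -0.12 (without replicate 4) and 0.56, *Ccn4* between 0.47 and 0.87, *Ccn5* between 0.76 and 1.22, and *Uba1* between -2.20 and -1.64. A pseudocount of 0.1 raised *Ccn4* to 1.05 and *Ccn5* to 1.68. *Uba1* passed the adjusted p with the filter set to a mean of 5 TPM (log2FC -1.98), under median-ratio scaling (-2.09) and quantile normalization (-2.06), without mitochondrial genes (-1.996), and with the block (-1.98) or the block with scaling (-2.09). It also passed without siUBA1 replicate 2 (adjusted p = 0.00257 from limma), without siUBA1 replicate 4 (0.0206) and without both legs of replicate 2 (0.0230). It did not pass under the other 12 alternatives, with an adjusted p of up to 0.294 without both legs of replicate 3, and 0.180 by the Kruskal-Wallis test.

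The genes past the adjusted p were 3 in the limma fit as reported, 11 with the filter set to a mean of 5 TPM, 23 under median-ratio scaling, 28 after quantile normalization, 14 without mitochondrial genes, 57 with the replicate block, 76 with the block and scaling, and 0 to 39 with muscles or mice left out. The Kruskal-Wallis test gave 0 (2210 at an unadjusted p under 0.05). Except for *Uba1*, *Sdc4*, *Itga5*, *Nuak2* and *Tgif1*, the block changed no call of a member or list gene. Median-ratio scaling turned the split at an unadjusted p under 0.05 from 1844 higher and 228 lower to 511 and 712. The cause of these changes was not tested. *Ccn4* and *Ccn5* fell below the filter of 5 TPM, and *Ccn6*, which was below the filter in every muscle, was given no alternative.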
